A study of Rattus norvegicus with 4 samples.

Results

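The genes described here supply peptides to major histocompatibility complex (MHC) class I molecules. They are Psmb8, Psmb9, Psmb10, Erap1, Tap1, Tap2, Tapbp, B2m and Nlrc5, 9 genes taken by symbol for their role. No measured value entered the rule, but earlier results of these data were known when the genes were chosen. Every probe of the array whose RefSeq transcript accession belongs to one of them was used. This gave 9 probes, printed as 11 spots per array, for 7 of the 9 genes, out of 21109 named probes for 16581 genes. No probe was matched to Erap1, the peptidase that trims peptides in the endoplasmic reticulum, or to Nlrc5, the transcriptional activator of class I genes, and no value is given for either.

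RNA came from NR8383 cells, a macrophage line established from the lung lavage of a normal rat. The labels place the cells after 20 passages and give their treatment as Printex90, a carbon black, at 0.9 cm2/cm2, with the abbreviation ALI. The series design gives 4 h of incubation and 4 biological replicates, each measured on a 1-colour Agilent array. These 4 arrays form a single group. Untreated cells were not analysed here, so no value is a change caused by the particles, and the line was grown alone in culture, with no other lung cells. All 4 arrays lie on a single slide. In bulk RNA a lower share of cells with a transcript and less transcript per cell cannot be told apart.

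Class I molecules show peptides from inside the cell to CD8+ T cells. Proteins are cut by the proteasome, in which the interferon-inducible catalytic subunits encoded by Psmb8, Psmb9 and Psmb10 can take the place of the constitutive subunits encoded by Psmb5, Psmb6 and Psmb7. The TAP1 and TAP2 chains together form the transporter that moves peptides into the endoplasmic reticulum, where tapasin, the product of Tapbp, holds an empty class I molecule at the transporter. Beta-2 microglobulin, the product of B2m, is the light chain that every classical class I molecule carries. Interferons raise the transcription of most of these genes through interferon-stimulated response elements and through NLRC5.

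Promoter windows of the 7 measured genes are shown because the known regulation of the set rests on such elements. They were taken from RefSeq on the GRCr8 assembly, 250 bases before to 50 bases after the gene's start, and all 7 genes were found in that table. Tap2, Psmb8, Tap1 and Psmb9 follow each other on chromosome 20, and the starts of Tap1 and Psmb9 lie 457 bases apart on opposite strands. Capitals mark matches, on either strand, to the core of the interferon-stimulated response element (GAAA and GAAA with any 2 bases between), to an NF-kB motif (GGG and TTCC with any 3 bases between) or to a GC box (GGGCGG). The windows of Tap1 and Psmb9 are given whole up to the start, since their genes face each other, and those of the other genes around their response elements. The last 6 bases of Psmb8 lie after its start.

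B2m, chr3:129549160-129549209, plus strand: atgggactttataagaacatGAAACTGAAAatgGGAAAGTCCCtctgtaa

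Psmb10, chr19:50743293-50743385, minus strand: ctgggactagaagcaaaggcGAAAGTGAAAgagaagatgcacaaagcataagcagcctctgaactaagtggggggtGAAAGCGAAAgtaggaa

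Psmb8, chr20:4657026-4657055, minus strand: cctcctcttggtgctgtggcTTTCGCTTTC

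Tap2, chr20:4652308-4652357, minus strand: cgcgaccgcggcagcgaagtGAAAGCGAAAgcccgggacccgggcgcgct

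Tapbp, chr20:4967878-4967923, minus strand: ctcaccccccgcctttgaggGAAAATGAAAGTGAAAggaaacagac

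Tap1, chr20:4668544-4668793, minus strand: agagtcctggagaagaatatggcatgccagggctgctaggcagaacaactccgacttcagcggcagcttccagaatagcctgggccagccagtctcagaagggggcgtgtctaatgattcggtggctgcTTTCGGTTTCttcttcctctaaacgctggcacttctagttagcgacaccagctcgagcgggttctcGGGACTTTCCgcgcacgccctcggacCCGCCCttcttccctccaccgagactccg

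Psmb9, chr20:4668750-4668999, plus strand: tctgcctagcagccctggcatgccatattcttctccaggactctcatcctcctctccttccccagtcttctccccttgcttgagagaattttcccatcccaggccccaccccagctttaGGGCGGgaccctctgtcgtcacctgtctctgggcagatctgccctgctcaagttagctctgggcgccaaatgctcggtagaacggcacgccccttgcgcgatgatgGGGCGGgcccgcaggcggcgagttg

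The response element core was found in the windows of 6 of the 7 genes, all but Psmb9, against 3.92% of the 33469 promoter windows in the table. Psmb10 holds 2 separate matches, and Tapbp holds 2 that overlap each other between bases -26 and -11 from the start. The match of Psmb8 spans the start itself, from base -4 to base 6, and that of Tap1 lies between bases -121 and -112. Both are on the strand opposite to the gene. The NF-kB motif was found in the windows of B2m, Tap1 and Tapbp, 3 of 7 against 5.37% of all windows. In B2m it begins 3 bases after the response element. Of the other motifs searched on both strands, the gamma-activated site TTCNNNGAA was found in Psmb8 alone, 1 of 7 against 8.87% of all windows. CCAAT, the box bound by NF-Y, was found in B2m, Psmb8 and Psmb9, 3 of 7 against 37.5%, and the GC box in Tap1, Tapbp and Psmb9, 3 of 7 against 33.1%. TATAAA was found in B2m, 1 of 7 against 14.2%, on the strand opposite to the gene between bases -163 and -158. The CCAAT match of Psmb9 lies after the start, between bases 23 and 27. No match of one motif overlapped a match of another. The far ends of the Tap1 and Psmb9 windows overlap by 44 bases. A match describes the letters of the window and not a bound site.

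**Figure D1:**
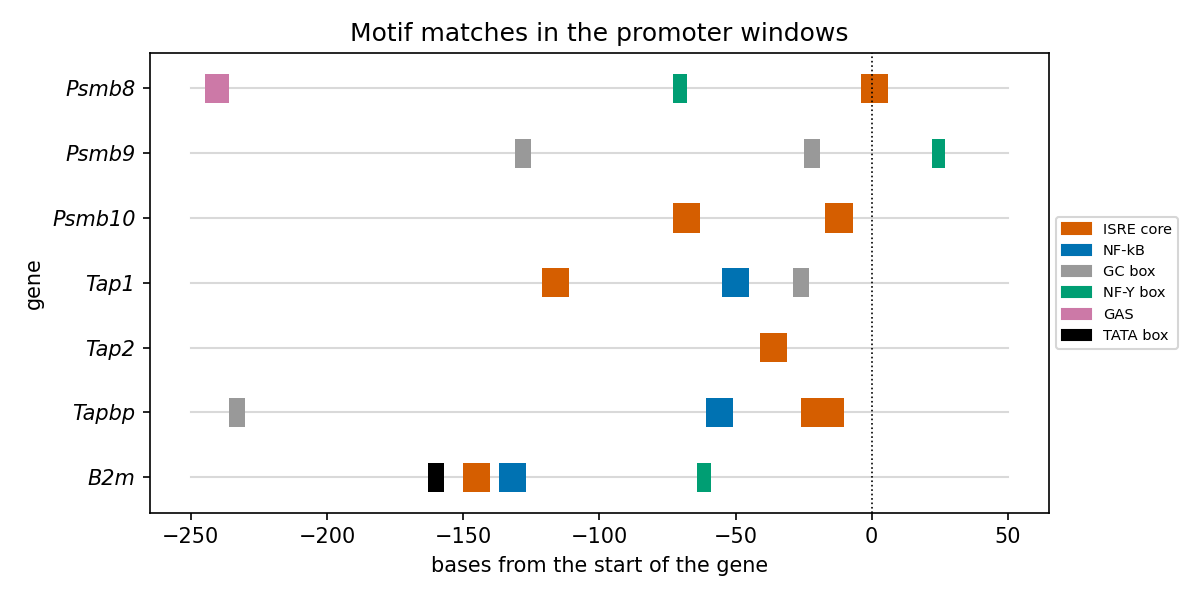
Motif matches in the promoter windows of the 7 measured genes, drawn to scale along the distance from the start of the gene in bases (horizontal axis), with one line per gene and a colour per motif. The response element core appears in every window except that of Psmb9, and in Psmb10 it appears 2 times. The Tap1 match lies between the facing starts of Tap1 and Psmb9, beyond the reach of the Psmb9 window.

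A gene's level is the log2 intensity of its brightest probe relative to the 75th percentile of the array, so a level of 0 lies at that percentile. That percentile was an intensity of 99.4, 83.8, 101.0 and 127.1 on replicates 1 to 4. Different probes bind with different strength, so levels describe each gene across the arrays and do not rank genes against each other. The arrays detected between 8917 and 9985 named genes, with the highest number on replicate 4. No spot was saturated on any array, and none of the 11 spots of the class I loading genes was left out as an outlier or lay in a bright region of an array. NR8383 expressed the markers of its labelled type, with 10 of 12 measured macrophage markers detected on all 4 arrays. Of 24 measured markers of other cell types, 3 were detected on all 4 arrays, namely Cd3d, Pecam1 and Cdh5. All 6 epithelial markers and the class II genes Cd74, RT1-Da and RT1-Ba were detected on no array. Of the macrophage markers, Marco was detected on 1 array and Adgre1 on 2.

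All 7 measured class I loading genes were detected on all 4 arrays, and so was each of their 9 probes. Over all named genes, 50.8% were detected on all 4 arrays, and 45.2% with every probe of the gene. The median level of the 7 genes was 4.14. Detection here means that the scanner software called a spot well above background, and the least level so called was -3.41, -3.11, -3.29 and -3.79 on replicates 1 to 4.

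**Figure D2:**
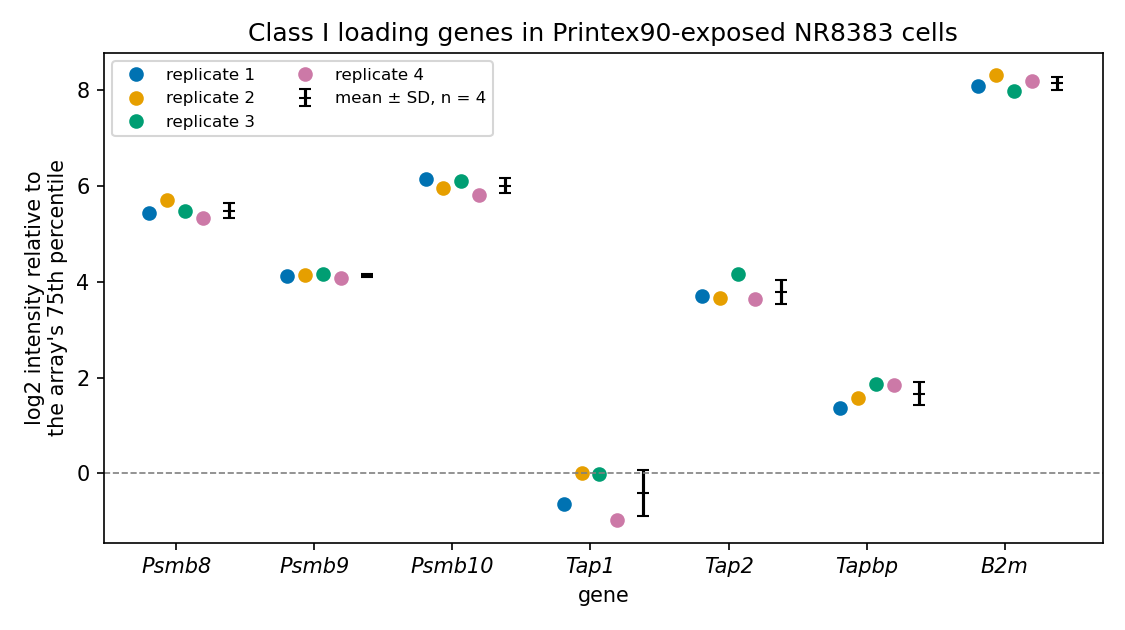
Level of each measured class I loading gene (vertical axis, log2 intensity relative to the array's 75th percentile) on replicates 1 to 4 (coloured points), with the mean and SD of the 4 arrays in black. Tap1 spans the widest range, from -0.98 to 0.01, and Psmb9 the narrowest, from 4.09 to 4.17.

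The 3 immunoproteasome subunits were detected on all 4 arrays, with highest and lowest arrays between 1.05-fold and 1.28-fold apart. Psmb8, the chymotrypsin-like subunit, read 5.44, 5.70, 5.48 and 5.35 on replicates 1 to 4, with a mean of 5.49 ± 0.15 (SD, n = 4). Its highest array, replicate 2, stood 1.28-fold above its lowest, replicate 4. Psmb8 has a single probe printed in 2 places on the array, which differed by 0.41, 0.44, 0.07 and 0.47 on the log2 scale on replicates 1 to 4. On 3 of the 4 arrays the distance between these spots was thus wider than the 0.36 between the highest and the lowest array. The same spot was the brighter on all 4 arrays, at 5.64, 5.92, 5.52 and 5.58 against 5.23, 5.48, 5.45 and 5.11. Both spots were highest on replicate 2, while the brighter was lowest on replicate 3 and the other on replicate 4. For the 699 detected probes printed 2 times, the median distance between the spots was 0.11 and the 95th percentile 0.48.

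Psmb9 had levels of 4.13, 4.15, 4.17 and 4.09, with a mean of 4.14 ± 0.033 (SD, n = 4). The subunit lies next to Tap1 and replaces the caspase-like subunit of the constitutive proteasome. No array stood apart for it, and 0.926% of all detected genes had a smaller SD. The closeness depended on the scaling and the background correction. Over 7 settings the SD of Psmb9 ranged from 0.033 to 0.35, with 0.16 after normexp background correction, where 58.8% of detected genes had a smaller SD.

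Psmb10, the subunit with trypsin-like activity, had levels of 6.15, 5.96, 6.11 and 5.81, with a mean of 6.01 ± 0.16 (SD, n = 4). Replicates 1 and 3 were the higher arrays and replicate 4 the lowest. Over the 7 settings the SD ranged from 0.0935 to 0.466 for Psmb10 and from 0.117 to 0.339 for Psmb8. The constitutive counterparts had levels of 6.36 ± 0.13 for Psmb5, 6.25 ± 0.14 for Psmb6 and 4.75 ± 0.054 for Psmb7 (SD, n = 4 for all), so transcripts of both sets of catalytic subunits were present in the same RNA.

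The 2 chains of the peptide transporter differed in how well they could be measured. Tap2 was far above background, with levels of 3.71, 3.66, 4.17 and 3.64 on replicates 1 to 4 and a mean of 3.80 ± 0.25 (SD, n = 4). Replicate 3 stood above the other 3 arrays, which lay between 3.64 and 3.71. Its dimmer probe read 2.28, 2.36, 2.84 and 2.55, with a mean of 2.51 ± 0.25 (SD, n = 4), and was also highest on replicate 3. The brighter probe is printed in 2 places, which differed by between 0.0016 and 0.27 on the log2 scale, less than the 0.53 between the highest and the lowest array. Replicate 3 remained the highest array of the brighter probe under all 7 settings, and of the dimmer probe under all but normexp background correction, where replicate 4 read 2.09 and replicate 3 read 2.06.

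The brighter probe of Tap1 had spots of 63.9, 84.1, 100.1 and 64.5 intensity units on replicates 1 to 4, the closest to background among the 7 genes. The levels were -0.64, 0.01, -0.01 and -0.98, with a mean of -0.41 ± 0.49 (SD, n = 4). Replicates 2 and 3 were high and replicates 1 and 4 low. The dimmer probe of Tap1 gave another order, with -2.45, -1.52, -2.41 and -1.70, so that replicates 2 and 4 were high and replicates 1 and 3 low. The raw signal of its spot was between 1.92 and 2.19 times the local background, and that of the brighter probe between 5.47 and 6.82 times. The probes shared the place of replicate 2 as highest and disagreed on replicates 3 and 4. In the brighter probe, though, replicates 2 and 3 were nearly level. Replicate 3 was its highest array with the array median as the scaling point, at 3.99 against 3.32 on replicate 2. The same held with bright regions left out, at 0.0133 against -0.0205.

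The SD of Tap1 exceeded that of 97.3% of all detected genes, and of 95.8% of the 2014 detected genes within 1 log2 unit of its level. It ranged from 0.24 to 0.69 over 7 settings and was lowest after normexp background correction, where 84.1% of detected genes had a smaller SD. Under the main setting Psmb9, whose start faces that of Tap1 in the sequences above, deviated from its mean by between -0.044 and 0.031. On the same arrays the brighter Tap1 probe deviated by between -0.57 and 0.41. After normexp the SD was 0.16 for Psmb9, 0.24 for the brighter Tap1 probe and 0.13 for the dimmer one. With the array median as the scaling point these were 0.35, 0.69 and 0.24. Under the other settings both Tap1 probes had a larger SD than Psmb9. Whether the facing starts bear on these differences was not tested.

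**Figure D3:**
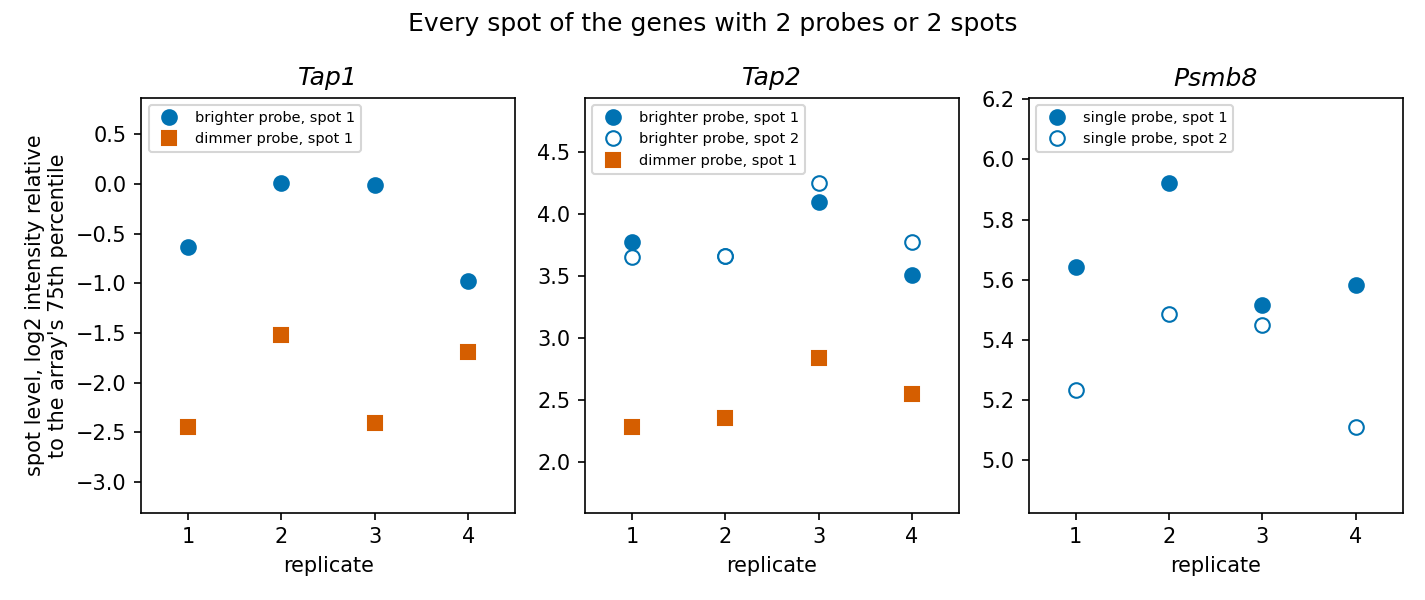
Level of every spot (vertical axes, log2 intensity relative to the array's 75th percentile, a separate scale in each panel) on replicates 1 to 4 for Tap1, Tap2 and Psmb8. Circles are the brighter or single probe, open circles its second spot and squares the dimmer probe. Both Tap2 probes are highest on replicate 3, the Tap1 probes differ in their order, and the Psmb8 spots lie up to 0.47 apart on one array.

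Tapbp, which encodes tapasin, had levels of 1.38, 1.57, 1.86 and 1.85, with a mean of 1.67 ± 0.24 (SD, n = 4). Replicates 3 and 4 were high and replicate 1 the lowest, at 1.40-fold below replicate 3. Its raw signal was between 9.42 and 16.1 times the local background.

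B2m, the light chain, had levels of 8.10, 8.32, 7.999 and 8.19, with a mean of 8.15 ± 0.14 (SD, n = 4). Replicate 2 was the highest array and replicate 3 the lowest, 1.25-fold apart. Its raw signal was between 1012 and 1344 times the local background. Replicate 3, lowest here, was highest for Tap2. Under 6 of the 7 settings B2m was lowest on replicate 3, and with the array median as the scaling point it was highest there, at 12.0, and lowest on replicate 4, at 11.5.

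The median SD of the 7 genes was 0.158, against 0.165 over all detected genes, and Tap1, Tap2 and Tapbp, 3 of the 7, lay above the median of all detected genes. With the mean of all probes of a gene it was again the lower, at 0.158 against 0.164. The median of the 7 genes was the higher at 0.171 against 0.165 with bright regions left out, 0.173 against 0.162 with the percentile over detected probes, 0.199 against 0.142 after normexp, 0.198 against 0.159 with quantile normalization, 0.436 against 0.390 with the array median and 0.202 against 0.178 with flagged spots kept. It was also the higher with any single replicate left out, between 0.163 and 0.189. The SD of the 3 immunoproteasome subunits was between 0.033 and 0.16. Among detected genes within 1 log2 unit of each gene's level, the share with a smaller SD was 88.2% for Tap2, 81.5% for Tapbp, 64.9% for Psmb10, 61.4% for Psmb8, 50.8% for B2m and 1.11% for Psmb9. These percentages place each gene among others on the same arrays and are no test.

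**Figure D4:**
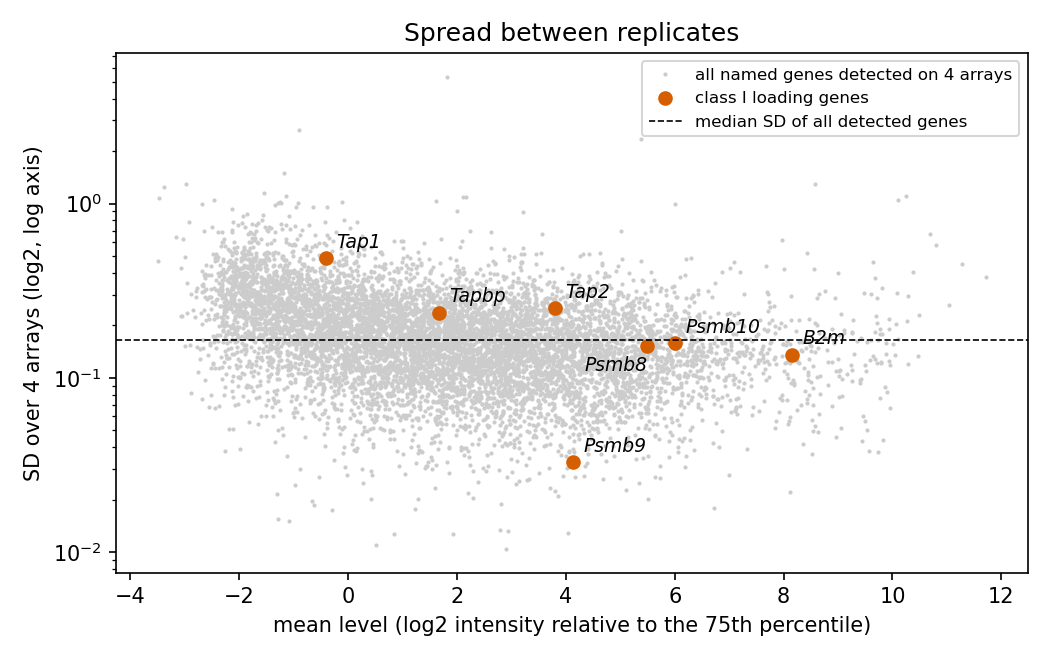
SD over the 4 arrays (vertical log axis, log2 units) against mean level (horizontal axis, log2 intensity relative to the 75th percentile) for all named genes detected on 4 arrays in grey and the class I loading genes in orange. Tap1 lies in the upper part of the cloud at an SD of 0.49, Psmb9 at its lower edge at 0.033, and the dashed line is the median SD of all detected genes.

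With the 75th percentile scaling, the class I loading genes differed in which array was highest. Their median deviation from the 4-array mean was -0.055, 0.017, 0.11 and -0.15 on replicates 1 to 4, against 0.032, -0.021, 0.030 and -0.026 over all detected genes. Without replicate 3, the median deviation on replicate 4 was -0.034. Replicate 4 was the lowest array for 5 of the 7 genes, where 29.8% of all detected genes were lowest. It was lowest for 5 of the 7 also with flagged spots kept or bright regions of the arrays left out, and for 6 with the array median as the scaling point, where all 7 genes were highest on replicate 3. With quantile normalization, or with the percentile taken over detected probes, replicate 4 was lowest for 2 of the 7 and replicate 1 for 4. After normexp background correction replicate 4 was lowest for 1 gene and highest for 3. The number of genes lowest on replicate 4 thus ranged from 1 to 6 over the 7 settings of scaling, spot filter and background correction, while Tap1 (brighter probe) was lowest on replicate 4 under all 7 settings.

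**Figure D5:**
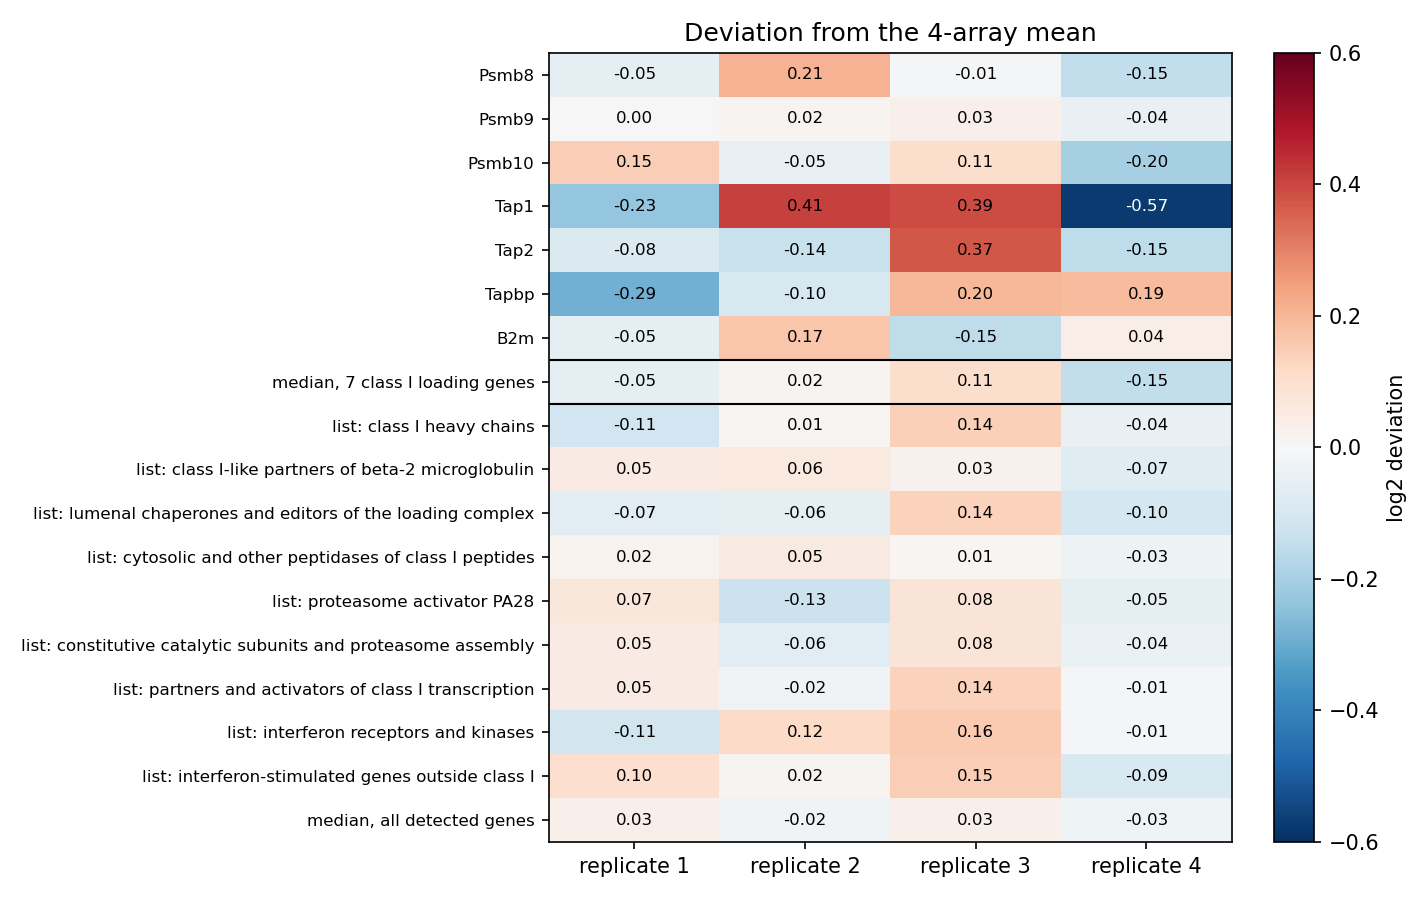
Deviation of each class I loading gene from its own 4-array mean on each replicate (colour and printed value, log2), with the median of the 7 genes, the median of each list of related genes and that of all detected genes below. Tap1 spans from -0.57 on replicate 4 to 0.41 on replicate 2, and Tap2 stands at 0.37 on replicate 3.

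Other genes of the pathway were counted in lists chosen by function, each read against the 50.8% of all named genes. Of 27 measured class I heavy chain genes, 22 were detected on all 4 arrays (81.5%). RT1-A1 had a level of 9.27 ± 0.095, RT1-A2 of 8.51 ± 0.094, RT1-A3 of 8.66 ± 0.062 and RT1-CE3 of 3.75 ± 0.20 (SD, n = 4 for all). RT1-M5, RT1-M6-1 and RT1-O1 were detected on no array. Some of the heavy chain genes are near-identical copies, so a probe of one may also bind transcripts of another and the count is uncertain. Their median deviation was -0.11, 0.006, 0.14 and -0.043 on replicates 1 to 4.

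Among proteins other than classical heavy chains that pair with beta-2 microglobulin or resemble class I, 3 of 6 were detected on all 4 arrays (50.0%). Fcgrt, the neonatal Fc receptor chain, had a level of 3.21 ± 0.12, Cd1d1, which presents lipids, one of 0.83 ± 0.0965, and Hfe, a regulator of iron uptake, one of 0.43 ± 0.12 (SD, n = 4 for all). Mr1, which presents vitamin B metabolites, and Azgp1 were detected on no array.

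Of the chaperones and partners in the endoplasmic reticulum, 6 of 7 were detected on all 4 arrays. Calr and Canx, the lectin chaperones calreticulin and calnexin, had levels of 6.36 ± 0.18 and 5.14 ± 0.27, and Pdia3, the thiol oxidoreductase that binds tapasin, one of 3.69 ± 0.13 (SD, n = 4 for all). Canx rested on 1 of its 2 probes for detection on all arrays. Tapbpl, the peptide editor related to tapasin, had levels of -0.46, -0.43, 0.42 and -0.31 on replicates 1 to 4. Replicate 3 was its highest array. The list's median deviation was -0.068, -0.057, 0.14 and -0.10.

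In the cytosol, all 3 genes of the PA28 proteasome activators were detected, with Psme1 at 6.51 ± 0.12, Psme2 at 7.26 ± 0.086 and Psme3, a nuclear form, at 2.77 ± 0.16 (SD, n = 4 for all). All 6 measured genes of the constitutive catalytic subunits and assembly factors were detected, including Pomp, the assembly chaperone, at 7.77 ± 0.16 (SD, n = 4). Peptidases of the cytosol and of other places that trim or destroy peptides gave 7 of 7. Among them were Lnpep at -0.56 ± 0.21, Npepps at 4.80 ± 0.10, Tpp2 at 1.87 ± 0.15 and Thop1 at 4.53 ± 0.27 (SD, n = 4 for all). For Tpp2, 2 of its 3 probes were detected on all 4 arrays.

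Of 16 measured factors that act with NLRC5 at class I promoters or activate them, 14 were detected on all 4 arrays (87.5%). The RFX subunit genes Rfx5, Rfxap and Rfxank had levels of 1.31 ± 0.14, 0.44 ± 0.22 and 1.71 ± 0.62, and the NF-Y subunit gene Nfya one of -1.39 ± 0.19 (SD, n = 4 for all). Rfxank was low on replicate 4, at 0.80 against 1.92 or more on the other 3 arrays. Nfyb, another NF-Y subunit, and Irf8, an interferon regulatory factor of myeloid cells, were detected on no array.

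Interferon receptors and their kinases were detected in 6 of 6 cases. Ifngr1 and Ifngr2, the chains of the receptor for interferon gamma, had levels of 4.25 ± 0.12 and 4.13 ± 0.12, and Ifnar1, a chain of the type I receptor, one of 0.03 ± 0.33 (SD, n = 4 for all). The kinase gene Jak1, by the brighter of its 2 probes, had levels of 5.76, 5.70, 5.71 and 5.06 on replicates 1 to 4. Replicate 4 was its lowest array.

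Interferon-stimulated genes outside the class I pathway were detected in 15 of 19 measured cases (78.9%), and Ifit1 and Oasl on no array. Isg15, a ubiquitin-like modifier, had a level of 1.77 ± 0.25, and the interferon-induced GTPase genes Mx1 and Mx2 had levels of 1.08 ± 0.25 and 4.68 ± 0.33 (SD, n = 4 for all). The median SD of the 15 detected genes was 0.25, against 0.16 for the class I loading genes, and their median deviation was 0.10, 0.017, 0.15 and -0.093 on replicates 1 to 4. Both groups were highest on replicate 3 and lowest on replicate 4 by their medians. The same held for the chaperones and partners in the endoplasmic reticulum, at 0.137 and -0.105. Replicate 3 was also highest for the class I heavy chains (0.14) and the interferon receptors and kinases (0.16), where replicate 1 was lowest. It was highest too for PA28 (0.077), the constitutive subunits and assembly factors (0.079) and the class I transcription factors (0.14), where replicate 2 was lowest. The class I-like partners and the peptidases were highest on replicate 2 and lowest on replicate 4. All detected genes were also lowest on replicate 4, at -0.026, and stood at 0.030 on replicate 3 and 0.032 on replicate 1. With quantile normalization the class I loading genes did not keep replicate 3 highest and replicate 4 lowest, with medians of -0.11, 0.054, 0.030 and -0.063. The order of the interferon-stimulated list under other settings was not examined.

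The genes whose deviations lay closest to the median deviation of the class I loading genes, by root-mean-square distance over the 4 arrays, were Mrpl42, Wipi2, Atp5f1b, Vrk3 and C11h22orf39. Their distances were between 0.020 and 0.022 on the log2 scale. Their SDs were between 0.0995 and 0.115, so the likeness is one of small differences between 4 arrays.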

How the data were processed

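Per the file headers and the submitters' processing notes, the authors made the deposited values with Agilent Feature Extraction 11.0.1.1. The column used holds spot intensities on a linear scale, after the software's own background subtraction and spatial detrending, and not normalized between arrays. Ratios of spot to local background used the raw median intensities in the same files. Probes carry transcript accessions, and these were looked up, version removed, among the genes of the GRCr8 RefSeq annotation. The array grid was built on rn4, so no probe positions are given, and promoter coordinates belong to GRCr8 alone.

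Spots flagged as non-uniform or population outliers were left out, between 750 and 1551 of 58717 non-control spots per array. Each probe's level is its mean log2 processed intensity minus the 75th percentile of that array's 45598 probes. The brightest probe measured on all 4 arrays gave the gene's level. A gene was detected on an array when any probe had a spot well above background.

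The members and lists were chosen with earlier results of these data known. Named with values were all members, the first 4 measured genes of each list of related genes and the 5 genes nearest in pattern. Genes detected on no array could be named beside a count. The cell type markers Marco, Adgre1, Cd3d, Pecam1 and Cdh5 were named after their values were seen. A single group allows no test between groups, and the 4 arrays limit the precision of each value. The planned limma test of single spots needed probes printed 3 or more times, which no member has. The planned normexp correction on mean spot signals was not run, and median signals were used in its place. The computation of levels was tested on simulated data. The 7 settings named in the text are the main one, quantile normalization, the array median, the percentile over detected probes, flagged spots kept, bright regions of the arrays left out, and normexp. Software was R 4.3.3 with limma 3.58.1 for normexp, and Python 3.11.15 with matplotlib 3.10.9, scipy 1.17.1, pandas 2.3.3 and numpy 2.4.6.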

Additional observations from a re-analysis of the deposited data

Results flagged for a closer look

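Of 52 sets of 4 array values examined, 3 had an array standing apart from the other 3 by more than Dixon's limit for 4 samples, and chance alone sets apart about 1 in 20. Tap2, a chain of the peptide transporter, read 4.17 on replicate 3, against 3.71, 3.66 and 3.64 on replicates 1, 2 and 4. The dimmer Tap2 probe read 2.84 on replicate 3, against 2.28, 2.36 and 2.55, and its ratio of 0.523 did not pass Dixon's limit. Tapbpl, a peptide editor of class I molecules, read 0.42 on replicate 3, against -0.46, -0.43 and -0.31 on replicates 1, 2 and 4. Jak1, a kinase of interferon receptors, read 5.06 on replicate 4, against 5.76, 5.70 and 5.71 on replicates 1, 2 and 3. These values are from the brighter of its 2 probes, and the dimmer Jak1 probe was not examined array by array. The cause of these differences was not tested.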

How the results depend on the processing

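All 7 measured class I loading genes were detected under each of 9 alternatives for detection, and the 81 recounts of the 9 related lists stayed within 1.5 times. With the array median as the scaling point, the class I loading genes had a median level of 7.71, a median SD of 0.44 (0.39 over all detected genes) and median deviations of -0.25, 0.54 and -0.40 on replicates 2 to 4. All detected genes then had median deviations of 0.12, -0.28, 0.46 and -0.28 on replicates 1 to 4. Since this scaling moves every gene of an array alike, the class I loading genes minus all detected genes stay by construction at the values of the 75th percentile scaling, -0.087, 0.038, 0.075 and -0.12. That difference was -0.11, 0.058, 0.029 and -0.082 with quantile normalization, and -0.062, -0.021, -0.026 and -0.0019 after normexp. The median level was 0.73 with the percentile over detected probes, 4.10 with flagged spots kept and 3.27 after normexp. The last was chosen after the data were seen, because the array values at hand held no mean spot signals. It gave median deviations of -0.022 and 0.045 on replicates 3 and 4. Leaving out each replicate gave a median deviation on replicate 4 between -0.15 and -0.034, with -0.034 without replicate 3. Without Tap1, an alternative also chosen after the data were seen, replicate 4 lay at -0.095 and replicate 3 at 0.068. No paired analysis was possible because a single group was analysed. The dimmer Tap1 probe, at no more than 2.19 times its local background, is the one of the 9 probes with the least signal over background.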
